A study of Mus musculus with 8 samples.

Results

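The colonic salt transport genes are 10 genes that move sodium, chloride, bicarbonate, sulfate, potassium and protons across the gut epithelium. They were chosen by gene symbol, and all 10 were found among the 29037 genes of the deposited table. RNA was sequenced from intestinal crypts, the pits of the gut lining, of 4 mice with a conditional knockout of Tdp-43 (cKO) and 4 wild-type (WT) littermates (Ctrl), all 8 weeks old. Tdp-43 is a nuclear protein that binds RNA, and its gene is Tardbp. The sources used here do not give the driver of the knockout, the deleted part of the gene, the sex of the mice or the stretch of gut. The comparison asked how these genes differ between cKO and Ctrl crypts.

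The colon absorbs salt and water by separate routes. In electroneutral absorption, a sodium-proton exchanger and a chloride-bicarbonate exchanger of the apical membrane work side by side. In electrogenic absorption, sodium enters through the epithelial sodium channel ENaC, which aldosterone raises in the distal colon. Fluid secretion runs the other way: chloride and bicarbonate leave through the channel CFTR after loading across the basolateral membrane.

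The values are gene counts that the authors divided by 1 factor per library, called normalized counts below, and 21517596 to 29992110 reads on genes were recovered per library. Tardbp RNA had 11990.2, 10794, 11875 and 13269 normalized counts in cKO 1 to 4, against 6319, 6342, 5103 and 4900.2 in Ctrl 1 to 4. It was higher in the libraries labelled cKO (log2 fold change 1.09 ± 0.11 SE, limma adjusted p = 0.00209). A count over the whole gene does not check a deletion of unknown extent, so directions below are between the groups as labelled. Colon genes were detected in all libraries: Car1 had 19887 to 80132 normalized counts in cKO and 36245 to 83710 in Ctrl, and the posterior Hox gene Hoxb13 had 2409 to 6374 in cKO and 3055 to 5760.3 in Ctrl. The small intestinal genes Lct, Sis and Apoa4 stayed at or below 50.7, while Fabp2 and Slc5a1 reached 7418 and 5969, so the small intestine list was not absent as a whole. The epithelial marker Epcam had 44107 ± 4596 in cKO and 48962 ± 3898 in Ctrl (SD, n = 4 each).

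Among the 10 genes, 1 was higher and 2 were lower in cKO. Scnn1g, the gamma subunit of ENaC, was higher by 3.24 ± 0.74 on the log2 scale (SE). The basolateral sodium bicarbonate cotransporter Slc4a4 fell by 1.27 ± 0.14, and the chloride channel gene Cftr fell by 0.62 ± 0.16. The other 7 did not pass the test, limma on log2(value + 1) with an adjusted p under 0.05. Over all 16536 tested genes, 5.65% were called higher and 6.07% lower, and counts of 1 and 2 among 10 genes do not set the list apart from that background. Without cKO 2, Scnn1g was called higher and Slc4a4 and Slc9a2 lower. The median log2 fold change was -0.08 over the 10 genes and -0.01 over all tested genes.

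**Figure D1:**
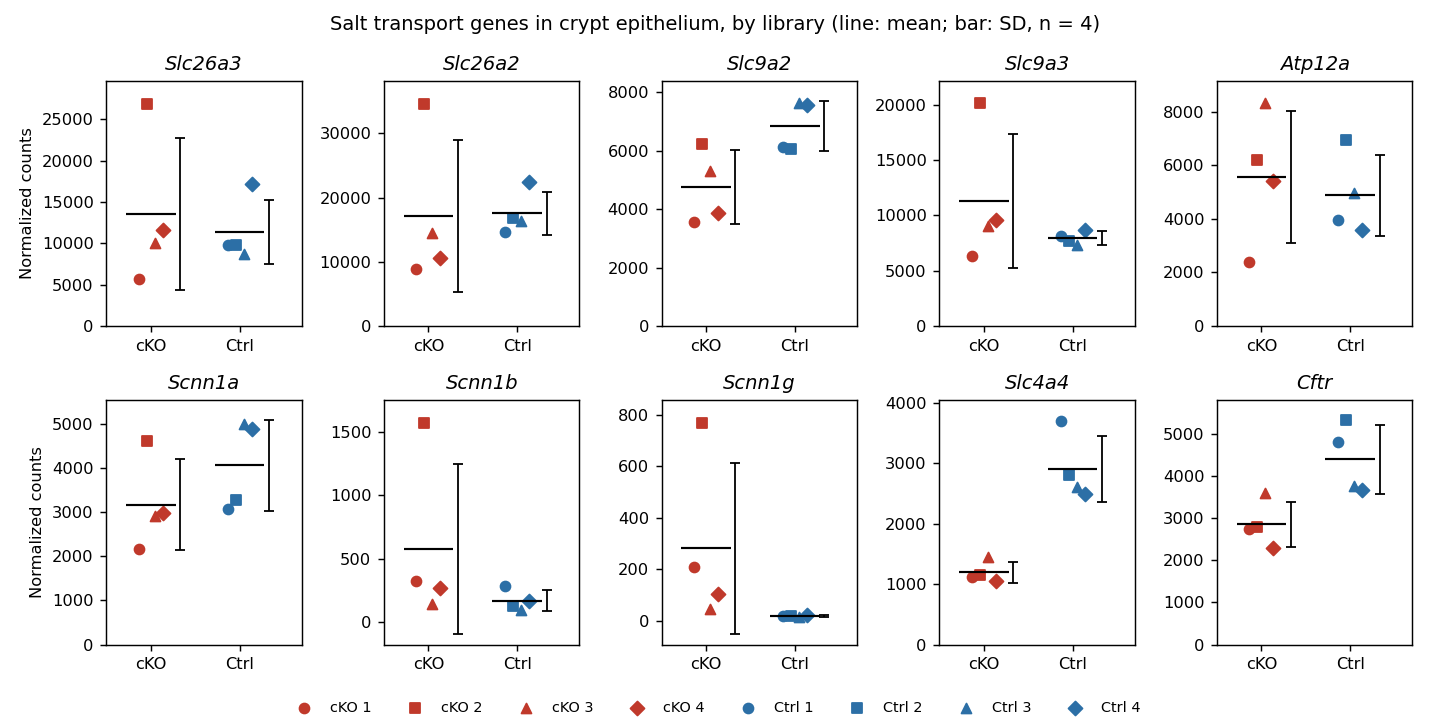
Normalized counts (vertical axes, linear and different for each gene) of the 10 salt transport genes in each cKO library (red) and each Ctrl library (blue). Lines are means and bars SDs over 4 libraries. Scnn1g, Slc4a4 and Cftr have no overlap between the groups, and cKO 2, a red square, is the highest cKO library for 7 of the 10 genes.

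One library stood apart in these genes. cKO 2 was the highest cKO library in 7 of the 10 genes, all but Atp12a, Slc4a4 and Cftr. The same library was the highest of cKO in 31.9% of all tested genes. cKO 1 was the lowest cKO library in 6 of the 10 genes, and in 27.1% of all tested genes. Calls that change without cKO 2 are given below beside the value with all libraries. In crypt RNA, fewer cells of a type and less RNA per cell cannot be told apart.

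The apical anion exchangers of the SLC26 family did not pass the test. Slc26a3, which takes up chloride in exchange for bicarbonate and is mutated in congenital chloride diarrhoea, lies on chromosome 12, 31390871 to 31473917 on the plus strand (ENSMUSG00000001225). Coordinates here and below are those of the deposited table, which for all 10 genes equal GENCODE M21 on GRCm38. Slc26a3 had 5724, 26833, 10098 and 11602 normalized counts in cKO 1 to 4, against 9848, 9781, 8683 and 17123 in Ctrl 1 to 4. The groups overlapped widely, with cKO 2 above and cKO 1 below every Ctrl library. The log2 fold change was 0.08 ± 0.44 (adjusted p = 0.920), and -0.32 ± 0.31 without cKO 2 (adjusted p = 0.518). Its direction also turned without Ctrl 3, to -0.03, so no direction is given for it.

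Slc26a2, which carries sulfate for the sulfation of mucus and matrix, lies on chromosome 18 (61192919 to 61211612, minus strand). It had 8894, 34537, 14457 and 10656 normalized counts in cKO 1 to 4, against 14619.6, 16781, 16417 and 22389 in Ctrl 1 to 4. In cKO 1, 3 and 4 it was below every Ctrl library, and in cKO 2 it was above every one. The log2 fold change was -0.23 ± 0.39 (adjusted p = 0.741), and without cKO 2 it was -0.64 ± 0.19 (adjusted p = 0.0545), still short of the threshold. Slc26a2 was the salt transport gene whose pattern came nearest to that of Slc26a3, with a root mean square difference of 0.29 in log2(value + 1) over the 8 libraries after centring each gene on its mean.

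Of the other SLC26 genes, 4 were tested and limma called none in either direction. At an unadjusted p under 0.05 it was 0 of 4 as well, and by edgeR and DESeq2 0 of 4. Slc26a7, a chloride transporter of kidney and stomach, had 114 normalized counts in cKO 2 and at most 10.0 in any other library (log2 fold change 2.46 ± 1.11, adjusted p = 0.186).

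The promoter of Slc26a3 is shown because it holds the rarest of the searched motifs. RefSeq promoters, from 250 bases before to 50 after a gene's start on GRCm38.p6, were used for 6 of the 10 genes. Slc26a2 was not among the genes searched. Both strands were searched for 6 motifs, printed in capitals: the CDX2 core TTTATG, the HNF4 core CAAAGTCCA, the corticosteroid element ACANNNTGT, the HNF1 motif, the GC box GGGCGG and the TATA box TATAAA. The window of Slc26a3 lies at chr12:31437969-31438268, plus strand, inside the span of the gene in the deposited table.
Slc26a3: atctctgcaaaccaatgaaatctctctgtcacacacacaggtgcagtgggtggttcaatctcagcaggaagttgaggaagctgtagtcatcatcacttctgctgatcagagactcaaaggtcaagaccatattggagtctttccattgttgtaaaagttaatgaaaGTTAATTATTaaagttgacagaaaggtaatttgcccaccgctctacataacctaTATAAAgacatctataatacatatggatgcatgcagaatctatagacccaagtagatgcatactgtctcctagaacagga
It has 1 HNF1 match, which begins at position -84 from the start site, and 1 TATA box at -30. Of 32544 promoter windows, 0.403% hold the HNF1 motif and 13.6% the TATA box. A match is a description of letters and not evidence of binding.

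The sodium-proton exchangers of the apical membrane differed from each other in their values. Slc9a2 (NHE2; chromosome 1, 40680574 to 40769273, plus strand) had 3568, 6246, 5324 and 3878 normalized counts in cKO 1 to 4, against 6137, 6077, 7625 and 7550.0 in Ctrl 1 to 4. Apart from cKO 2, all cKO libraries were below all Ctrl libraries. With all libraries the log2 fold change was -0.56 ± 0.18 (adjusted p = 0.0797). Without cKO 2 it was -0.70 ± 0.15 and passed the threshold (adjusted p = 0.0201), and it also passed by DESeq2 (adjusted p = 0.0442). Slc9a2 did not pass in the other 12 of 13 settings that kept all libraries (adjusted p up to 0.122). In the authors' deposited table its log2 fold change was -0.53 with an adjusted p of 0.0547.

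Slc9a3 (NHE3; chromosome 13, 74121457 to 74169442, plus strand), the main sodium-proton exchanger of intestinal absorption, had 6363, 20157, 9050.0 and 9573 normalized counts in cKO 1 to 4, against 8159, 7677, 7320.4 and 8719 in Ctrl 1 to 4. Its Ctrl libraries were tight, with a coefficient of variation of 7.61%, against 53.9% in cKO. Its log2 fold change was 0.37 ± 0.30 (adjusted p = 0.471), and 0.04 ± 0.14 without cKO 2 (adjusted p = 0.864). Within a library, the level of Slc9a3 per kilobase was 2.26, 4.09, 2.16 and 3.13 times that of Slc9a2 in cKO 1 to 4, against 1.69, 1.60, 1.22 and 1.47 times in Ctrl 1 to 4. All 4 cKO ratios were above all 4 Ctrl ratios, a description with no test. Here and below, a level per kilobase is the normalized count divided by the deposited gene length, whose definition the sources used here do not give.

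Atp12a, the proton-potassium pump of the colon, takes up potassium at the apical membrane (chromosome 14, 56365068 to 56388550, plus strand). It had 2371, 6182, 8323 and 5411 normalized counts in cKO 1 to 4, against 3970.0, 6948, 4960.5 and 3595 in Ctrl 1 to 4. It was 1 of 3 genes in which cKO 3 was the highest cKO library, and the groups overlapped. Its log2 fold change was 0.11 ± 0.38 (adjusted p = 0.880) and turned to -0.13 without cKO 3 and to -0.02 without Ctrl 4. Slc9a2 and Atp12a each overlap a predicted gene on the opposite strand.

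Partners of sodium chloride absorption mostly did not pass the test: of 10 tested genes, 0 were higher and 1 was lower by limma. At an unadjusted p under 0.05, 1 was higher and 3 were lower. The adjusted calls were 0 and 1 by edgeR, and 1 and 2 by DESeq2. Chp2, which binds sodium-proton exchangers, fell by 1.62 ± 0.30 on the log2 scale (1015 ± 444 normalized counts in cKO and 3019 ± 856 in Ctrl, SD, adjusted p = 0.0140). Ezr, which links membrane proteins to actin, had 28010 ± 6136 in cKO and 19230.1 ± 2200.5 in Ctrl (log2 fold change 0.53 ± 0.15, adjusted p = 0.0567). The scaffold Slc9a3r1, which holds Slc9a3 at the membrane, had 9128 ± 2322 in cKO and 7399 ± 611 in Ctrl (adjusted p = 0.280). Of 8 other SLC9 genes tested, limma called 0 in either direction, with 2 higher and 1 lower at an unadjusted p under 0.05. For these 8, edgeR called 0, and DESeq2 called 0 higher and 1 lower.

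**Figure D2:**
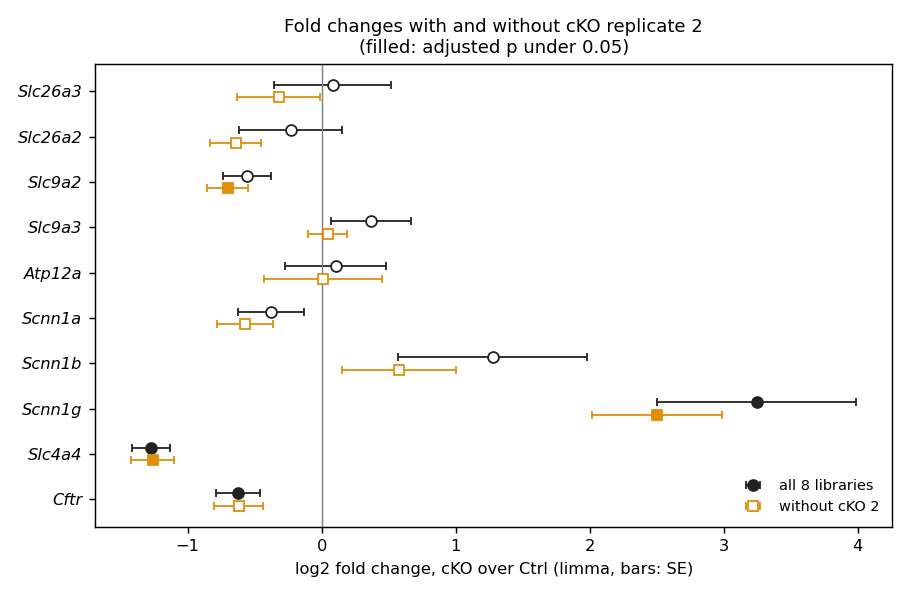
Log2 fold changes of cKO over Ctrl (horizontal axis) for the 10 genes from limma, with SEs as bars, over all 8 libraries (black circles) and without cKO 2 (orange squares). Filled symbols have an adjusted p under 0.05: Scnn1g, Slc4a4 and Cftr with all libraries, and Scnn1g, Slc4a4 and Slc9a2 without cKO 2.

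The ENaC subunits moved unevenly. ENaC is built from an alpha, a beta and a gamma subunit, encoded by Scnn1a, Scnn1b and Scnn1g. Scnn1a (chromosome 6, 125320659 to 125344943, plus strand) had 2165, 4618, 2911 and 2968 normalized counts in cKO 1 to 4, against 3066, 3266, 5002 and 4886 in Ctrl 1 to 4. The groups overlapped through cKO 2 alone, and the log2 fold change was -0.38 ± 0.25 (adjusted p = 0.360), or -0.58 ± 0.21 without cKO 2 (adjusted p = 0.0996).

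Scnn1b (chromosome 7, 121865038 to 121918514, plus strand) had 320.4, 1578, 136 and 265 normalized counts in cKO 1 to 4, against 282, 124, 91.9 and 162 in Ctrl 1 to 4. cKO 2 was far above the other 7 libraries, and cKO 3 and 4 lay within the Ctrl range. For this subunit the log2 fold change was 1.28 ± 0.71 (adjusted p = 0.277), and 0.58 ± 0.42 without cKO 2 (adjusted p = 0.387). The gene overlaps Cog7 on the opposite strand, which had 1324 normalized counts on average in cKO and 1274 in Ctrl. The sources used here do not say whether the counting used strand, so reads from the shared stretch cannot be told apart.

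Scnn1g (ENSMUSG00000000216, chromosome 7, 121734479 to 121768475, plus strand) had 207, 770.3, 43.2 and 103 normalized counts in cKO 1 to 4, against 17.0, 16.8, 12.3 and 20.5 in Ctrl 1 to 4. All cKO libraries were above all Ctrl libraries, with cKO 2 the highest and cKO 3 the lowest of cKO. In reads, cKO 1 to 4 held 227, 790, 43 and 105, and Ctrl 1 to 4 held 14, 16, 13 and 23. The mean was 281 ± 333 in cKO and 16.7 ± 3.34 in Ctrl (SD, n = 4 each). Its log2 fold change was 3.24 ± 0.74 (adjusted p = 0.0275), and 2.50 ± 0.48 without cKO 2 (adjusted p = 0.0139). The call was lost without cKO 1 or 4 or any single Ctrl library (adjusted p of 0.0504 to 0.0780, with log2 fold changes of 3.11 to 3.46), without the filter on low values (0.0591) and with limma-voom (0.101). In the authors' deposited table its log2 fold change was 4.08 with an adjusted p of 7.45e-05.

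Seen as ratios per kilobase, the gamma subunit stood at 0.132, 0.230, 0.0205 and 0.0480 of the alpha subunit in cKO 1 to 4, against 0.00767, 0.00711, 0.00340 and 0.00578 in Ctrl 1 to 4. Relative to the beta subunit it stood at 0.569, 0.430, 0.280 and 0.342 in cKO, against 0.0531, 0.119, 0.118 and 0.111 in Ctrl. Both ratios were higher in every cKO library than in any Ctrl library. The ratio of beta to alpha overlapped, at 0.0731 to 0.536 in cKO and 0.0288 to 0.144 in Ctrl. These ratios are descriptions, with no test. By level per kilobase in Ctrl, Scnn1a stood above 90.7% of all tested genes, Scnn1b above 39.9% and Scnn1g above 7.82%.

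**Figure D3:**
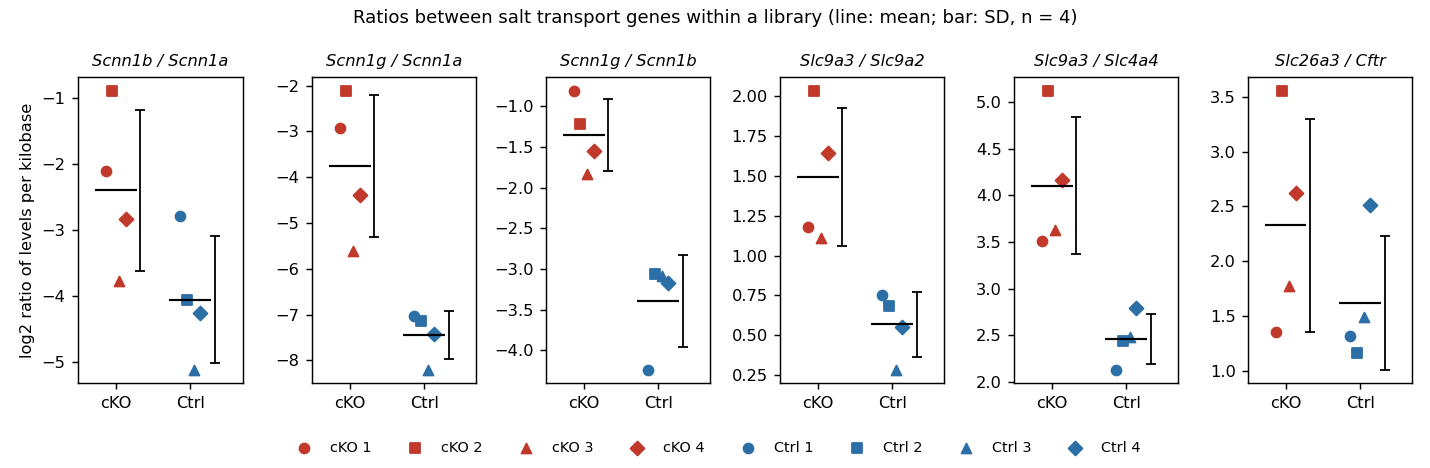
Log2 ratios of levels per kilobase between pairs of salt transport genes (vertical axes, different for each pair) in each cKO library (red) and each Ctrl library (blue), with means as lines and SDs over 4 libraries as bars. The groups do not overlap for Scnn1g over Scnn1a, Scnn1g over Scnn1b, Slc9a3 over Slc9a2 and Slc9a3 over Slc4a4, and they overlap for Scnn1b over Scnn1a and Slc26a3 over Cftr.

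Scnn1g and Scnn1b are neighbours on the plus strand of chromosome 7, with 96.6 kb between the end of Scnn1g and the start of Scnn1b. Their promoters are shown because the genes lie side by side and only Scnn1g was called. The windows lie at chr7:121734229-121734528 and chr7:121864788-121865087, plus strand.
Scnn1g: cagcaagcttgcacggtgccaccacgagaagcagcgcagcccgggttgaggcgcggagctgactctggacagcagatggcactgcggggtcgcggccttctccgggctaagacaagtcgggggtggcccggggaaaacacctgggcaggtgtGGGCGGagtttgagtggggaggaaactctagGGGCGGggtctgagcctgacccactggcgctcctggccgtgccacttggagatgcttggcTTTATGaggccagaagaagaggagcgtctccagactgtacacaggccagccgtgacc
Scnn1b: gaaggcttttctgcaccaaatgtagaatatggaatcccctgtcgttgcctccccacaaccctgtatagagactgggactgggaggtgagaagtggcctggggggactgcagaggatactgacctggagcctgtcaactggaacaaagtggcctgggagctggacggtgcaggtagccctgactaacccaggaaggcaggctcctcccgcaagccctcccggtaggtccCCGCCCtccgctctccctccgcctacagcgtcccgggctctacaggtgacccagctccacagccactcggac
The Scnn1g window holds 2 GC boxes and 1 CDX2 core at position -7, and the Scnn1b window holds 1 GC box, on the other strand. The GC box is found in 35.9% and the CDX2 core in 11.9% of promoter windows. Neither window holds the corticosteroid element, which 6.83% of windows hold. Within 200 kb of the pair, 10 of 11 genes were tested, both subunits included. Of these, limma called Scnn1g alone. The other 8 had log2 fold changes between -0.15 for Ndufab1 and 0.48 for Gm44986.

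Of 14 genes that control ENaC, 0 were higher, 3 were lower and 11 were not called by limma, beside 6.07% of all tested genes called lower. This list, too, was chosen with earlier results of these data known, and no list test was run. The counts in each direction were the same at an unadjusted p under 0.05 and by DESeq2, and 0 and 1 by edgeR. Nr3c1, the glucocorticoid receptor, fell by 0.74 ± 0.15 on the log2 scale (1594 ± 273 normalized counts in cKO and 2653 ± 424 in Ctrl, adjusted p = 0.0188). Tsc22d3, a glucocorticoid-induced leucine zipper protein, fell by 0.69 ± 0.19 (736 ± 195 in cKO and 1175 ± 209 in Ctrl, adjusted p = 0.0454), and the deubiquitinase Usp2 fell by 0.87 ± 0.23 (adjusted p = 0.0415). The calls of Tsc22d3 and Usp2 held in 9 of 13 settings that kept all libraries, with adjusted p up to 0.0752 for Tsc22d3 and up to 0.0657 for Usp2 in the others, edgeR among them. That of Nr3c1 was lost without Ctrl 1 or Ctrl 2 (adjusted p of 0.0536 and 0.0525), that of Tsc22d3 without any library other than cKO 2 and Ctrl 4 (up to 0.114), and that of Usp2 without any library other than cKO 2 (up to 0.0996). The mineralocorticoid receptor Nr3c2, through which aldosterone acts, had 2430.3 ± 397 in cKO and 2999.6 ± 632 in Ctrl (adjusted p = 0.294). Nedd4l, the ubiquitin ligase that removes ENaC from the membrane, had 2295 ± 359 in cKO and 2531 ± 294 in Ctrl (log2 fold change -0.15 ± 0.13, not called).

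Sgk1, Hsd11b2 and Fxyd4, chosen after their values were seen, were highest in cKO 2, as Scnn1b and Scnn1g were. Sgk1, an aldosterone-induced kinase, had 7501 normalized counts in cKO 2, against 1378 to 2029 in the other cKO libraries and 1381 to 3149 in Ctrl. Hsd11b2, which shields the mineralocorticoid receptor from glucocorticoids, had 15059 in cKO 2, against 4509 to 5012 in the other cKO libraries and 5775 to 6468 in Ctrl. Fxyd4, a sodium pump regulator of the colon, had 5637 in cKO 2, against 54.2 to 208 in the other cKO libraries and 58.8 to 359 in Ctrl. The pattern did not extend to all genes of ENaC and its control: in cKO 2, Scnn1a lay within the Ctrl range, Nr3c2 had 2850.1, against 2354 to 3658 in Ctrl, and Usp2 had 466, against 485 to 596 in Ctrl. Sgk1, Hsd11b2 and Fxyd4 were not called with all libraries, and their log2 fold changes were 0.21 ± 0.55 for Sgk1, 0.02 ± 0.36 for Hsd11b2 and 1.33 ± 1.36 for Fxyd4. Without cKO 2, limma called Hsd11b2 lower, which brought the ENaC control list to 4 lower of 14. The posterior Hox gene Hoxd13 was also highest in cKO 2, at 2318, against 579 to 964 in the other cKO libraries and 595 to 1463 in Ctrl, and Car4 had 19124 there, against 4729 to 13039 in the other 7 libraries. The part of these markers in the ENaC values was not tested.

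**Figure D4:**
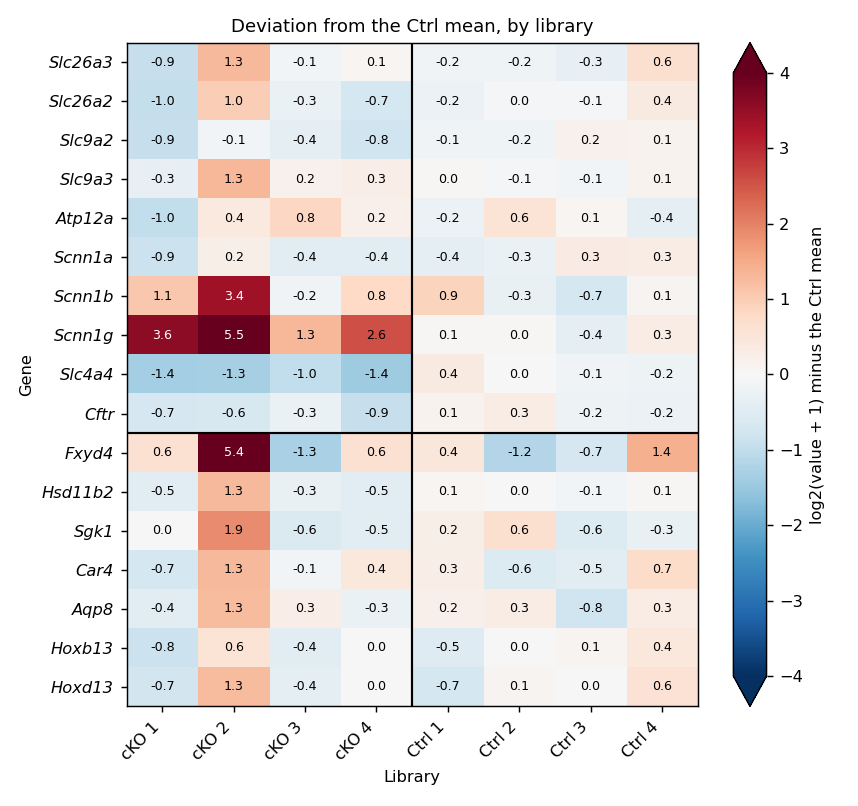
Difference of log2(value + 1) from the mean of the 4 Ctrl libraries (colour and printed number) for the 10 salt transport genes (above the line) and 7 other genes of salt transport and colon position (below it), with cKO libraries left and Ctrl libraries right. The colour scale ends at 4 and -4. Scnn1g is above 1 in all 4 cKO libraries, Slc4a4 is at -0.98 or lower in all 4, and cKO 2 is high for most other genes.

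On the secretory side, Slc4a4 had the lowest adjusted p of the 10 genes. Slc4a4 (NBCe1; ENSMUSG00000060961, chromosome 5, 88886818 to 89239653, plus strand) brings sodium and bicarbonate into the cell across the basolateral membrane. It had 1111, 1151, 1452 and 1059 normalized counts in cKO 1 to 4, against 3690.2, 2811, 2602 and 2497 in Ctrl 1 to 4. Every cKO library was below every Ctrl library by a wide gap. The mean was 1193 ± 177 in cKO and 2900.0 ± 543 in Ctrl (SD, n = 4 each), a ratio of 0.411. On the log2 scale the fold change was -1.27 ± 0.14 (adjusted p = 0.00287), it was -1.26 without cKO 2, and the call held in all 21 other settings tried (adjusted p up to 0.0114). It was the only gene of the 10 whose coefficient of variation was smaller in cKO (14.8%) than in Ctrl (18.7%).

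Cftr (ENSMUSG00000041301, chromosome 6, 18170687 to 18322768, plus strand) encodes the chloride and bicarbonate channel that cyclic AMP opens. It had 2735, 2787, 3589 and 2297 normalized counts in cKO 1 to 4, against 4808, 5334, 3771 and 3661 in Ctrl 1 to 4. The groups did not overlap, but cKO 3 came close to Ctrl 4. The mean was 2852 ± 538 in cKO and 4394 ± 813 in Ctrl, and the log2 fold change was -0.62 ± 0.16 (adjusted p = 0.0396). The call was lost without cKO 1, 2 or 4 or Ctrl 1, 2 or 3 (adjusted p of 0.0543 to 0.0980, with log2 fold changes of -0.52 to -0.69), when scaled to library totals (0.0695), in limma without trend and robust estimation (0.0703) and with replicate numbers as a block (0.0511). Groups without overlap were seen in 3 of the 10 genes, Scnn1g, Slc4a4 and Cftr, and in 19.9% of all tested genes, with cKO above Ctrl in 9.54% and below in 10.3%.

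The promoters of both genes are shown because both were lower. The windows lie at chr5:88887010-88887309 and chr6:18170437-18170736, plus strand, and RefSeq gives Slc4a4 another start, at chr5:89027716-89028015, which holds none of the motifs.
Slc4a4: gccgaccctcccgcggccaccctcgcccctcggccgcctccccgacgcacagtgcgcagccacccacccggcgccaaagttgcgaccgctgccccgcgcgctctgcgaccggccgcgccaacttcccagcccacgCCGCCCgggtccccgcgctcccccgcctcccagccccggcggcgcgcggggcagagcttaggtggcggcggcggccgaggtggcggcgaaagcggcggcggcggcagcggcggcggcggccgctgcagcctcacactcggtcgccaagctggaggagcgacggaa
Cftr: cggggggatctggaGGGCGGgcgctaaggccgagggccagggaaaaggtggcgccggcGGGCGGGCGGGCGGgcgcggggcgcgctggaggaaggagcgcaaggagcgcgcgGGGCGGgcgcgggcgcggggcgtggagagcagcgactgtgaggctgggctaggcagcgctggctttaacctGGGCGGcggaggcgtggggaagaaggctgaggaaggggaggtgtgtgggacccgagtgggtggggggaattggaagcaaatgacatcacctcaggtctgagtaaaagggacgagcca
The Cftr window holds 6 GC boxes, 3 of which overlap in 1 run, and the Slc4a4 window holds 1. Of the bases, 71.3% are G or C in the Cftr window and 80.0% in that of Slc4a4, against 39.3% in that of Slc26a3. A gene count does not tell which start of Slc4a4 was used.

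Of 14 other genes of chloride and fluid secretion tested, 0 were higher, 6 were lower and 8 were not called by limma, beside 6.07% of all tested genes called lower. This list was chosen with earlier results of these data known, so its count beside that share is a description and no test. At an unadjusted p under 0.05, 1 was higher and 8 were lower, and the adjusted counts were 0 and 6 by edgeR and 0 and 7 by DESeq2. The median log2 fold change of the 14 was -0.43. Kcnq1, the basolateral potassium channel that keeps up the driving force for chloride exit, fell by 2.24 ± 0.28 on the log2 scale (664 ± 299 normalized counts in cKO and 2966 ± 509 in Ctrl, adjusted p = 0.00392). Its partner subunit Kcne3 fell to 2490.4 ± 638 in cKO, against 4850.0 ± 405 in Ctrl, a ratio of 0.513 (adjusted p = 0.0138).

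Among receptors and enzymes that start secretion, 4 fell, and the prostaglandin receptor Ptger4 had 881 ± 114 in cKO and 881 ± 177 in Ctrl (log2 fold change 0.01, adjusted p = 0.968). Vipr1, the receptor for vasoactive intestinal peptide, had 6437 ± 442 in cKO and 9946 ± 1142 in Ctrl and fell by 0.62 ± 0.10 (adjusted p = 0.00759). Adcy6, which makes cyclic AMP, fell by 0.51 ± 0.12 (adjusted p = 0.0273). Gucy2c, the guanylin receptor that makes cyclic GMP, fell by 0.40 ± 0.09 (adjusted p = 0.0289), and Prkg2, a kinase that cyclic GMP activates, fell by 1.30 ± 0.27 (adjusted p = 0.0198). Slc12a2, which loads chloride across the basolateral membrane, had 13892 ± 1165 in cKO and 13872 ± 1610 in Ctrl, a log2 fold change of 0.01 ± 0.11 (adjusted p = 0.978). The calcium-activated potassium channel Kcnn4 had a log2 fold change of -0.27 ± 0.18 (adjusted p = 0.360). The count of lower genes was 3 without cKO 1, Ctrl 1 or Ctrl 3, and 7 without cKO 2. The call of Adcy6 was lost without any library other than cKO 2 (adjusted p up to 0.0769), that of Gucy2c without any other than cKO 2 and cKO 3 (up to 0.0762) and in 3 of 13 settings with all libraries (up to 0.0690), and that of Prkg2 without cKO 1, Ctrl 1 or Ctrl 3 (up to 0.0621).

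**Figure D5:**
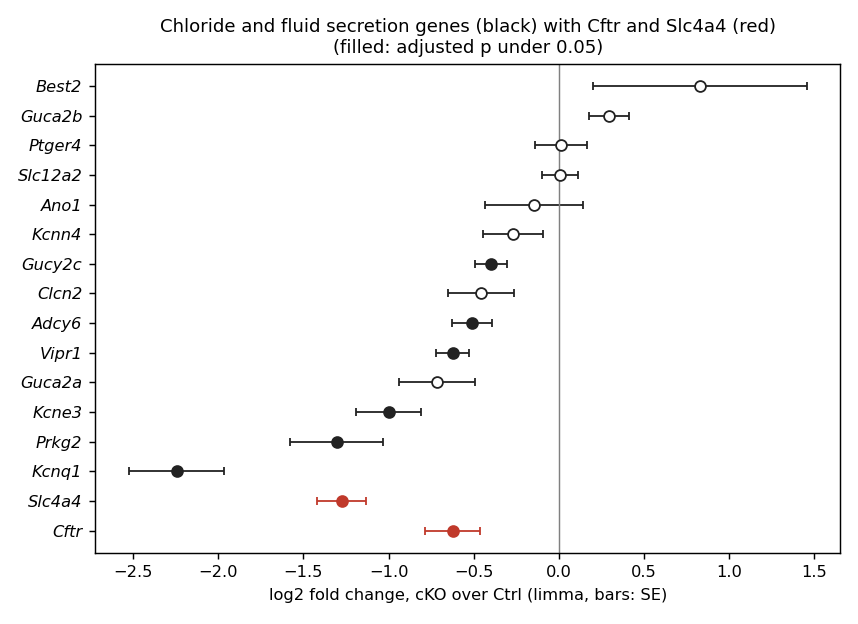
Log2 fold changes of cKO over Ctrl from limma (horizontal axis, SEs as bars) for the 14 genes of the chloride and fluid secretion list (black) and for Cftr and Slc4a4 (red). Filled circles have an adjusted p under 0.05, which 6 of the 14 reach, all below 0.

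Genes of the SLC4 family besides Slc4a4 included 1 that was higher and 1 that was lower, of 5 tested. Slc4a2, a basolateral chloride-bicarbonate exchanger, fell by 0.68 ± 0.13 (5405 ± 669 normalized counts in cKO and 8705 ± 1263 in Ctrl, adjusted p = 0.0134). Slc4a11 had 680.1, 169.7, 227 and 397 normalized counts in cKO 1 to 4, against 18.3, 14.7, 10.4 and 18.7 in Ctrl 1 to 4. It was higher in every cKO library, lowest of these in cKO 2, with a log2 fold change of 4.31 ± 0.42 (adjusted p = 0.00180). Of 10 sodium pump subunits and potassium channels tested, 0 were higher and 1 was lower by limma, with 1 and 2 at an unadjusted p under 0.05 and by DESeq2, and 0 and 1 by edgeR. The potassium channel Kcnk5 had 1647 ± 387 in cKO and 2425 ± 481 in Ctrl (adjusted p = 0.0902). Without cKO 2, limma called Kcnk5 lower, which brought that list to 2 lower of 10.

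Ordered by level per kilobase in Ctrl, the genes ran Slc26a3 (1783 ± 609), Slc9a3 (1448 ± 110.2), Slc26a2 (1419 ± 272), Atp12a (1212 ± 374), Scnn1a (981 ± 249), Slc9a2 (980.4 ± 123), Cftr (566 ± 105), Slc4a4 (266 ± 49.8), Scnn1b (62.7 ± 31.6) and Scnn1g (5.57 ± 1.12). Neighbours among the first 6 overlapped in their Ctrl ranges, while each step after Slc9a2 was without overlap. In cKO, Slc26a3 (2130 ± 1443, from 899 to 4213) again led, and Scnn1b (218 ± 256) stood above Slc4a4 (109 ± 16.2) and Scnn1g (93.9 ± 111), with the ranges of these 3 overlapping.

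With cKO 2 included, the 10 genes varied more between cKO libraries than between Ctrl libraries. Their median coefficient of variation was 49.0% in cKO and 19.6% in Ctrl, while over all tested genes it was 18.3% and 14.3%. It was larger in cKO for 9 of the 10 genes, and the share over all tested genes was not computed. cKO 2 was the highest cKO library in 7 of the 10 genes, and the spread without it was not computed. Markers of mature absorptive cells summed to 246764 to 381259 normalized counts in cKO, with cKO 2 the highest and 2 of 12 markers called higher and 2 lower, and to 351255 to 444015 in Ctrl. Crypt base and cycling markers summed to 9896 in cKO 2, 17434 to 19859 in the other cKO libraries and 13157 to 20106 in Ctrl. Neutrophil markers, 5 of 7 called higher, summed to 104 in cKO 2, 315 to 1707 in the other cKO libraries and 8.52 to 146 in Ctrl, and macrophage markers, with 0 of 6 called by limma, to 372 to 728 in cKO and 184 to 362 in Ctrl. Small intestinal markers, 3 of 8 called lower, summed to 5513 to 9255 in cKO and 11803 to 13173 in Ctrl, without overlap. Most of that sum was Fabp2 (mean 2412 in cKO and 6186 in Ctrl) and Slc5a1 (4094 and 5510). Lyz1, Gata4, Pdx1 and Slc10a2 of that list had higher means in cKO and were not called. Goblet cell markers, 1 of 7 called lower, summed to 316802 to 780002 in cKO and 602785 to 1088867 in Ctrl. Most of that sum was Fcgbp and Clca1, while Tff3 and Zg16 had higher means in cKO and were not called. Such sums follow their most abundant genes and do not measure cell numbers. The part of these shifts in the salt transport values was not tested.

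The protein-coding genes whose patterns over the 8 libraries came nearest were found by the same root mean square difference among 13071 genes. For Slc26a3 they were Gmpr (0.19), Slc25a34 (0.22) and Shroom1 (0.22), against a median of 0.69 over all genes compared. For Slc4a4 they were Rdh5 (0.15), A4gnt (0.15) and Boc (0.16), and all 3 were called lower. For Cftr they were Cntrl (0.10), Rsbn1l (0.10) and Mier1 (0.11), again all called lower. Nearness was measured over the same 8 libraries as the calls, so these shared calls follow from the choice and add no support. For Scnn1b the nearest were Rgs16 (0.57), Fam43a (0.59) and Peg3 (0.61), against a median of 1.22. The medians were 0.71 for Slc4a4 and 0.46 for Cftr. The difference is not scaled by a gene's spread, so its size is not compared between these genes.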

How the data were processed

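Values in the table deposited by the authors are a normalized signal for each gene and library: gene counts over a factor of the library, as their steps show. Whole reads were recovered for 100% of values within 0.0001 reads. The authors also deposited log2 fold changes with p-values, raw and adjusted, whose test the sources used here do not name. Per the submitters' processing notes, HISAT2 2.0.5, featureCounts 1.5.0-p3 and CASAVA were used. The sources used here do not give the genome build or strand setting. Each library is 1 mouse, per the labels' protocols.

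Genes with a mean of at least 10 were tested with limma 3.58.1 (trend and robust, two-sided) on log2(value + 1), with Benjamini-Hochberg adjustment over 16536 genes at 0.05. The pseudocount understates changes of low genes. Alternatives, 21 in number, covered pseudocounts, filters, scalings, edgeR 4.0.16, DESeq2 1.42.0 and limma-voom on recovered reads, the replicate block and each library left out. The genes and lists were chosen with earlier results of these data known. Named were the 10 genes, Tardbp, called genes of the pathway lists with up to 4 others each, and nearest genes. Others were named after their values were seen, and some list genes are not reported here. The fit was tested on simulated data with 4 libraries against 4. It recovered 12.9% of 1.5-fold, 50.2% of 2-fold and 84.3% of 4-fold changes, so a gene that was not called may still differ. Scripts ran in R 4.3.3 and Python 3.11.15.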

Additional observations from a re-analysis of the deposited data

Results flagged for a closer look

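Among the 10 genes in both groups, 20 sets of 4 libraries were checked for a library far from the others, and chance marks about 1 in 20. Scnn1b had 1578 normalized counts in cKO 2, against 136 to 320.4 in the other cKO libraries. Slc26a3 had 17123 in Ctrl 4, against 8683 to 9848 in the other Ctrl libraries. Both gaps to the nearest library, 0.872 and 0.862 of the group's range, were above the 95% limit of Dixon's test for 4 samples.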

How the results depend on the processing

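Slc4a4 was lower under every setting tried, while the calls of Scnn1g and Cftr were near the threshold. The table-wide counts were 935 higher and 1004 lower as reported, and DESeq2 called 1509 higher. With 1 library left out they ran between 376 and 1350 higher and between 390 and 1382 lower. Salt transport genes called higher numbered 1 as reported, 0 without the filter on low values and 0 with limma-voom, and 0 to 1 with 1 library left out. At an unadjusted p under 0.05, limma counted 1, and edgeR and DESeq2 also called 1. Those called lower numbered 2, against 3 by DESeq2 and at an unadjusted p under 0.05 by limma, with Slc9a2 added. It was 1 when scaled to library totals, 1 in limma without trend and robust estimation, and 1 with the replicate block, where Cftr had an adjusted p of 0.0511. With 1 library left out they numbered 1 to 2. Scaled to library totals, 1327 genes were higher and 740 lower. With 1 library left out, log2 fold changes ran between -0.32 and 0.42 for Slc26a3, -0.64 and 0.011 for Slc26a2, and -0.13 and 0.47 for Atp12a. The cause of these shifts was not tested. The labels tie replicate numbers to no shared litter or batch. In deviations from the group means, 3 of 4 same-numbered pairs correlated at 0.12 to 0.32, each above any other Ctrl library. For cKO 2 with Ctrl 2 it was -0.11. These correlations do not settle whether same-numbered samples share a source. The reported fit did not treat them as paired because the labels give no pairing. The block gave 821 higher and 924 lower genes. Scnn1g rests on 13 to 23 reads per Ctrl library, which limits its fold change.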

Other observations

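Kcnj16, a potassium channel subunit of the pump and channel list, had 0.913, 0, 1.004 and 0 normalized counts in cKO 1 to 4, which is 2 reads in all, against 36.5, 3.15, 11.4 and 116.5 in Ctrl 1 to 4. It was called lower with an adjusted p of 0.0280, and with only 2 reads in cKO no fold is given. The call was lost without cKO 1, cKO 4, Ctrl 1, Ctrl 3 or Ctrl 4 (adjusted p up to 0.0730). Best2, a bicarbonate channel of goblet cells, had 771, 3562, 397 and 1312 normalized counts in cKO 1 to 4, against 432, 526, 628 and 1012 in Ctrl 1 to 4, with overlapping groups and the highest value again in cKO 2.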
